A study of Mus musculus with 18 samples.

Results

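Whole cerebella of 3 *Dot1l*-cKO mice and of 3 control mice were compared at postnatal day 3 (P3), 1 Affymetrix Mouse Gene 2.0 ST array per mouse, and the 6 arrays were taken from the 18 of the series by the genotype in their titles. *Dot1l*-cKO mice carried 2 floxed *Dot1l* alleles and *Atoh1*-Cre (*Dot1l* f/f, *Atoh1* cre/+), and control mice carried the floxed alleles without Cre (*Dot1l* f/f, *Atoh1* +/+), all on a C57BL6/J background. For control mouse 3 the title gives *Dot1l* f/f and the description *Dot1l* f/+. Cre recombines the floxed exon, with a frame shift, in the *Atoh1* lineage, whereas RNA was taken from all cells of the cerebellum. No control carried Cre or the *Atoh1* cre allele, so that their effects cannot be told apart from that of the deletion. Values are deposited log2 signals, 1 transcript cluster for each of 22180 genes, and a log2 change is the *Dot1l*-cKO mean minus the control mean. In whole tissue, fewer cells of a type and less RNA per cell cannot be told apart.

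DOT1L is the methyltransferase of histone H3 at a lysine in the globular domain (H3K79), a mark found over the bodies of transcribed genes. In the newborn cerebellum, precursors of granule neurons divide in the external granular layer under the drive of Sonic hedgehog (SHH) from Purkinje cells, then leave the cell cycle and migrate inward. The transcription factor ATOH1 marks this lineage from the rhombic lip onward, which also gives rise to glutamatergic neurons of the cerebellar nuclei and unipolar brush cells. GABAergic neurons, among them Purkinje cells and interneurons, come from the ventricular zone, outside the *Atoh1* lineage.

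The cluster of *Dot1l*, which covers the whole transcript and not only the deleted exon, had log2 signals of 9.24, 9.43 and 9.01 in *Dot1l*-cKO, against 9.05, 9.13 and 9.05 in control cerebella, and the groups overlapped. The study verified the knockout in P3 cerebella by qRT-PCR of the deleted exon. Cerebellar identity was checked with the granule lineage factor *Zic1* (12.26 to 12.42 in *Dot1l*-cKO, 12.42 to 12.46 in control cerebella) and with the Purkinje cell gene *Calb1* (11.71 to 11.86 in *Dot1l*-cKO, 11.81 to 12.07 in control cerebella). *Dot1l*-cKO mice 1 and 3 and control mouse 1 had *Xist* signals of 10.71, 10.78 and 10.92, and the other mice, *Dot1l*-cKO 2 and controls 2 and 3, had 4.27, 4.28 and 4.62 with the Y-linked *Uty* at 8.33 to 8.50. Each group thus held mice of both sexes, in unequal numbers. *Uty*, *Kdm5d* and *Eif2s3y* read 4.04 to 4.46 on the female arrays, taken here as the signal of an absent transcript, only a guide because probes differ in background. The first principal component, with 30.4% of the variance over 12850 genes, placed all control arrays on one side, *Dot1l*-cKO 2 and 3 on the other and *Dot1l*-cKO 1 between them, and the second, with 26.7%, set *Dot1l*-cKO 1 and control 1 apart from the rest.

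In all, 5 genes had an adjusted p (limma, Benjamini-Hochberg) below 0.05, which is 0.0225% of those tested: *Actc1*, *Mymk* and *Cyp4f39* rose, and *Carnmt1* and *Ptcd2* fell. *Actc1*, the α-actin of cardiac and embryonic skeletal muscle, read 8.49, 8.06 and 8.66 in *Dot1l*-cKO cerebella, against 4.66, 4.59 and 4.48 in control cerebella, where it stood little above the signal of an absent transcript (14.2-fold, adjusted p = 7.93e-06). *Mymk*, whose membrane protein drives myoblast fusion, read 6.67, 5.95 and 6.59 in *Dot1l*-cKO, against 4.62, 4.35 and 4.66 in control cerebella (3.63-fold, adjusted p = 0.0204). *Cyp4f39*, a cytochrome P450 gene of fatty acid hydroxylation, read 6.69, 6.45 and 6.63 in *Dot1l*-cKO, against 5.24, 4.84 and 5.06 in control cerebella. Where control arrays lie near the signal of an absent transcript, as for *Actc1*, *Mymk* and most muscle genes described below, the difference in signal is a lower bound on that in transcript. For each of the 3 genes the lowest *Dot1l*-cKO array lay above the highest control array. *Carnmt1*, which encodes the methyltransferase that makes anserine from carnosine, read 9.46, 9.30 and 9.34 in *Dot1l*-cKO cerebella, against 10.27, 10.15 and 10.23 in control cerebella (0.554-fold, adjusted p = 0.0204). *Ptcd2*, which encodes a mitochondrial protein with pentatricopeptide repeats, read 7.14, 7.44 and 7.39 in *Dot1l*-cKO cerebella, against 8.27, 8.59 and 8.53 in control cerebella (0.454-fold, adjusted p = 0.0431). These groups did not overlap either. Only *Actc1* passed when *Dot1l*-cKO 3, control 2 or control 3 was left out, 2 genes passed without *Dot1l*-cKO 2 or control 1 and 12 without *Dot1l*-cKO 1, and the ordinary variance of each gene left no gene past the adjusted test, with 1715 genes at the unadjusted cut-off.

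With an unadjusted limma p up to 0.05 as the cut-off, 908 genes were higher (4.09% of all genes) and 1019 lower (4.59%) in *Dot1l*-cKO cerebella, 8.69% in both directions. With the median of the tested genes subtracted from each array, the same cut-off gave 395 higher and 2451 lower genes, so the balance of directions depends on the scaling. These medians were 5.78 to 5.81 on *Dot1l*-cKO and 5.68 to 5.74 on control arrays, so the subtraction lowers every log2 change. Groups did not overlap for 1396 higher genes (6.29%) and 1717 lower genes (7.74%). Without that subtraction, the median log2 change of all genes was -0.01 and the median standard error of a change 0.14. Below, a gene "at the cut-off" has an unadjusted limma p of at most 0.05 and, unless stated, did not pass the adjusted test.

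**Figure D1:**
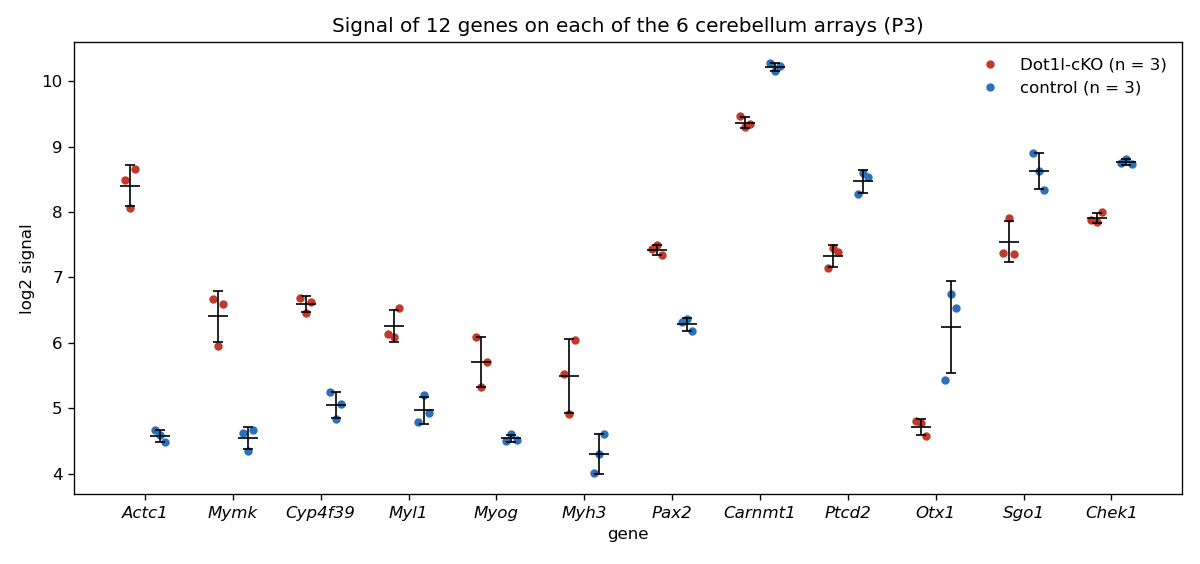
Log2 signal of 12 genes on each array, *Dot1l*-cKO (red, left of each pair) and control (blue, right), with the mean and SD of 3 mice as black lines. For each gene the points of the groups are separate, and *Actc1* shows the widest gap.

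Another 9 genes had an adjusted p from 0.05 to 0.10. Among them, *Pax2*, a transcription factor of young GABAergic interneurons, read 7.43, 7.50 and 7.34 in *Dot1l*-cKO cerebella, against 6.31, 6.37 and 6.18 in control cerebella, a log2 change of 1.14 with a standard error of 0.17 (limma adjusted p = 0.0672). *Chek1*, the checkpoint kinase that restrains cells with stalled replication forks, averaged 7.91 ± 0.08 in *Dot1l*-cKO and 8.76 ± 0.04 in control cerebella (SD, n = 3 each), a log2 change of -0.85 with a standard error of 0.13 (limma adjusted p = 0.0672). The spread within either group was far smaller than the distance between them. The others were *Dapl1*, *Myl1* and *Scrg1* with higher signals, and *Baz1a*, *Celf2*, *Glo1* and *Kif23* with lower signals. *Celf2* encodes an RNA-binding regulator of splicing (log2 change -0.66), *Glo1* the glyoxalase that detoxifies methylglyoxal (-0.64), and *Baz1a* a subunit of ISWI chromatin remodellers (-1.05). The array holds 2 clusters for *Celf2*, and with them averaged its log2 change was -0.37.

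Of the 1540 genes at the cut-off whose groups did not overlap, the 15 with the largest log2 change in each direction were named, without 198 genes of predicted or numbered symbols. Above control stood 5 muscle genes (*Actc1*, *Mymk*, *Myl1*, *Myh3* and *Myog*), and several neuronal genes: *Cartpt*, a neuropeptide precursor (log2 change 1.35), *Sncg*, γ-synuclein (1.30), *Glra1*, the adult α-subunit of the glycine receptor (1.23), and *Pax2*. *Glra1* read 5.41, 5.34 and 7.55 in *Dot1l*-cKO, against 5.31, 4.54 and 4.75 in control cerebella, so that its mean rests on *Dot1l*-cKO 3. *Lamp5*, a lysosome-associated protein of interneurons, and *Dgkk*, a diacylglycerol kinase, were likewise highest in that mouse, at 7.49 and 7.91. Without *Dot1l*-cKO 3 the log2 change was 0.51 for *Glra1*, 0.79 for *Sncg*, 0.81 for *Lamp5* and 0.34 for *Dgkk*. Below control stood *Otx1*, *Sfrp1*, *Bmp5* and genes of dividing cells, *Arhgap19*, *Sgo1*, *Lmnb1* and *Chek1*. *Bmp5*, a bone morphogenetic protein, had a log2 change of -0.90, *Tnfaip8l3*, a lipid transfer protein, -0.92, and *Zfp146*, a zinc finger gene, -0.94. The largest decrease in the mean was that of *Erdr1* (-2.44), with 6.37, 9.22 and 10.78 in *Dot1l*-cKO, against 11.01, 11.13 and 11.56 in control cerebella. *Erdr1* lies in the pseudoautosomal region, which is hard to assemble, and the array holds a second cluster for it, so that its value is uncertain. Its *Dot1l*-cKO values spread over a far wider range than its control values, and its log2 change was -1.23 without *Dot1l*-cKO 1.

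Genes of developing skeletal muscle were higher beyond the 2 that passed. Of 53 measured genes of embryonic skeletal muscle, 16 were higher at the cut-off (30.2%, against 4.09% of all genes), *Actc1* and *Mymk* included. Only 1, *Klhl40*, was lower at the cut-off, and the median log2 change was 0.12. The list was chosen with earlier results of these data known, so this share is not independent of them. Myogenin (*Myog*), the transcription factor that commits myoblasts to differentiate, read 6.09, 5.32 and 5.70 in *Dot1l*-cKO, against 4.50, 4.60 and 4.51 in control cerebella. *Myod1*, which acts before it, read 4.82, 4.75 and 4.79 in *Dot1l*-cKO cerebella, against 4.39, 4.30 and 4.33 in control cerebella. Both sets of control values lay near the signal of an absent transcript, and the *Dot1l*-cKO values of *Myod1* were close to it too. Among genes of the contractile apparatus, *Myl1*, a fast myosin light chain, had a log2 change of 1.29, *Myh3*, the embryonic myosin heavy chain, 1.19, *Tnni1*, slow troponin I, 0.72, *Myh8*, the perinatal myosin heavy chain, 0.64, and *Tnnt2*, the troponin T of the heart and of embryonic skeletal muscle, 0.52. *Chrnb1*, a subunit of the acetylcholine receptor of muscle (0.56), and *Ryr1*, the calcium release channel (0.35), were also at the cut-off, and *Actn2*, *Casq2*, *Klhl41*, *Mylpf* and *Tnnc1* made up the 16. Several other muscle genes stood at the signal of an absent transcript or overlapped between the groups. *Mymx*, the partner of *Mymk* in fusion, read 4.18, 4.09 and 4.37 in *Dot1l*-cKO, against 4.29, 4.38 and 4.09 in control cerebella, at the signal of an absent transcript in both. The satellite cell gene *Pax7*, the titin gene *Ttn* and muscle creatine kinase *Ckm* did not exceed 4.30 on any array. *Acta1*, the α-actin of mature skeletal muscle, read 5.62 to 5.69 in *Dot1l*-cKO and 5.20 to 5.63 in control cerebella. Of 18 genes of smooth muscle and relatives of cardiac actin none was higher at the cut-off and 1, *Myl3*, was lower. The mean over the 53 genes stood 0.29, 0.26 and 0.39 above the control mean in *Dot1l*-cKO 1, 2 and 3, and -0.02, 0.00 and 0.02 from it in the controls. Without each mouse in turn, 11 to 16 members were higher at the cut-off. Whether the RNA came from muscle cells or from cells of the cerebellum was not tested.

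The promoters of muscle genes are shown because E-boxes, the sites of MYOD1 and MYOG, are a known feature of them. The motif CAGCTG, the same on both strands, was found in the 250 bases before the start in 21 of 45 RefSeq windows of 41 listed muscle genes, and in 4271 of all 32851 windows. Below are the 150 bases before the start of *Actc1*, with a CArG box, the site of serum response factor, in capitals, and of *Tnni1* and *Mylpf*, a fast regulatory myosin light chain (log2 change 0.50), with CAGCTG in capitals. *Tnni1* and *Mylpf* had the largest changes among members at the cut-off with CAGCTG in this stretch. A CArG box stood in 1.47% of all windows. *Mymk* was not matched. The build is GRCm38.p6: *Actc1* at chr2:114052876-114053025, minus strand, *Tnni1* at chr1:135799271-135799420, plus strand, and *Mylpf* at chr7:127211458-127211607, plus strand.
Actc1: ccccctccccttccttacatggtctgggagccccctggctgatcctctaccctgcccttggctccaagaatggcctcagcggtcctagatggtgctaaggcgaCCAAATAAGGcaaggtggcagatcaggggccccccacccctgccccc
Tnni1: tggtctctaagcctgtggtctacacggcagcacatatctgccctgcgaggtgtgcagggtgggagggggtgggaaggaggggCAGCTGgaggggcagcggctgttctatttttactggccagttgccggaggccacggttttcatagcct
Mylpf: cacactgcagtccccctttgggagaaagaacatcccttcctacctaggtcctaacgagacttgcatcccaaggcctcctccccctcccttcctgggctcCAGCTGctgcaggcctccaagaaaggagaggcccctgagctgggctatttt

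In each of 9 lists of cell cycle genes, lower signals prevailed in *Dot1l*-cKO cerebella. From origin licensing to repair by homologous recombination, 250 genes were measured and 229 had a lower mean, against 52.0% of all genes (48.0% had a higher mean). At the cut-off, 111 of the 250 were lower and 1 was higher, and the median log2 change was -0.30. None passed the adjusted test, the smallest adjusted p being 0.0672. Without each mouse in turn, 75 to 122 members were lower at the cut-off.

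Replication origins are licensed when CDC6 and CDT1 load the MCM helicase. Of 25 measured genes of this step, 14 were lower at the cut-off (56.0%, against 4.59% of all genes) and none was higher, with a median log2 change of -0.33. *Cdc6* read 6.77, 6.75 and 7.10 in *Dot1l*-cKO, against 7.67, 7.81 and 7.39 in control cerebella (-0.75, standard error 0.18), and the groups did not overlap. *Cdt1* (-0.62), *Cdc45*, which joins the helicase (-0.64), and 6 of the MCM genes, from *Mcm4* (-0.56) to *Mcm7* (-0.32), were also at the cut-off, besides *Mcm10*. Without *Dot1l*-cKO 3 the count was 9 and the log2 change of *Mcm7* -0.21. At the replication fork 9 of 29 genes were lower at the cut-off, among them *Timeless*, which protects the fork (-0.64), and the polymerase subunits *Pole2* (-0.51) and *Pold3* (-0.44). The sliding clamp *Pcna* had a log2 change of -0.17 with overlapping groups. Of 18 genes of nucleotide synthesis 6 were lower, led by *Shmt1*, a source of one-carbon units (-0.64), with *Tyms* (-0.44) and *Rrm2* (-0.41), which make thymidylate and deoxyribonucleotides. This last count was 3 without *Dot1l*-cKO 2, *Dot1l*-cKO 3 or control 3 and 10 without *Dot1l*-cKO 1, and the log2 change of *Tyms* was -0.29 without control 3.

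Entry into S phase is set by E2F factors, RB proteins and G1 cyclins. Here 8 of 27 genes were lower at the cut-off and none higher, among them the activator *E2f2* (-0.66), *Mybl2* (-0.52), the pocket protein gene *Rbl1* (-0.52) and *Ccna2* (-0.48). *Ccnd2*, the D-type cyclin of granule precursors, read 11.47, 11.37 and 11.27 in *Dot1l*-cKO, against 11.59, 11.81 and 11.75 in control cerebella (-0.35).

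Mitotic genes followed the same direction. Of 29 genes of mitotic kinases, cyclins and the anaphase-promoting complex, 20 were lower at the cut-off (69.0%) and the median log2 change was -0.39. They included *Fbxo5*, the inhibitor of the anaphase-promoting complex (-0.84), the chromosomal passenger genes *Cdca8* (-0.68), *Incenp* (-0.49), *Birc5* (-0.48) and *Aurkb* (-0.46), the spindle assembly factor *Tpx2* (-0.62) and *Cdk1* (-0.38). The proliferation marker *Mki67* read 10.60, 10.90 and 10.59 in *Dot1l*-cKO, against 10.84, 10.95 and 11.01 in control cerebella, so that the groups overlapped (-0.24). Of 32 genes of mitotic kinesins and cytokinesis 16 were lower, with a median of -0.39. *Arhgap19*, a GTPase-activating protein for RhoA in dividing cells, read 7.49, 6.93 and 6.71 in *Dot1l*-cKO, against 8.12, 8.05 and 8.27 in control cerebella (-1.10, standard error 0.20). *Kif23*, the kinesin of the central spindle, read 8.78, 8.88 and 8.73 in *Dot1l*-cKO cerebella, against 9.44, 9.54 and 9.49 in control cerebella (-0.69, standard error 0.11). Neither gene overlapped between the groups. The count of this list was 8 without *Dot1l*-cKO 3, and 25 with the median of the tested genes subtracted.

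At the kinetochore 15 of 34 genes were lower at the cut-off (44.1%), with *Sgo1*, the guardian of centromeric cohesion, first. *Sgo1* read 7.37, 7.91 and 7.36 in *Dot1l*-cKO, against 8.90, 8.63 and 8.34 in control cerebella (-1.08, standard error 0.19). Centromere proteins (*Cenpl* -0.79, *Cenpk* -0.76, *Cenpe* -0.56), SKA subunits (*Ska3* -0.60, *Ska1* -0.54) and *Ndc80* (-0.47) followed, *Cenpl* with -0.52 without *Dot1l*-cKO 3. *Zwint*, a kinetochore gene that neurons also express, was the exception, the only member of the 9 lists higher at the cut-off, with a log2 change of 0.34 and overlapping groups. Of 19 cohesin and condensin genes 11 were lower, led by the cohesin acetyltransferase *Esco2* (-0.72) and the helicase *Hells* (-0.61), and including *Rad21* (-0.42) and *Smc2* (-0.44). Their count was 7 without *Dot1l*-cKO 3 or control 2. In the Fanconi pathway and homologous recombination 12 of 37 genes were lower, with *Chek1* first. Then came *Palb2* (-0.60) and *Brca1* (-0.59), which act together at broken DNA, and the kinases *Atm* (-0.50) and *Atr* (-0.46). With all clusters of *Atr* averaged, its log2 change was -0.17.

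**Figure D2:**
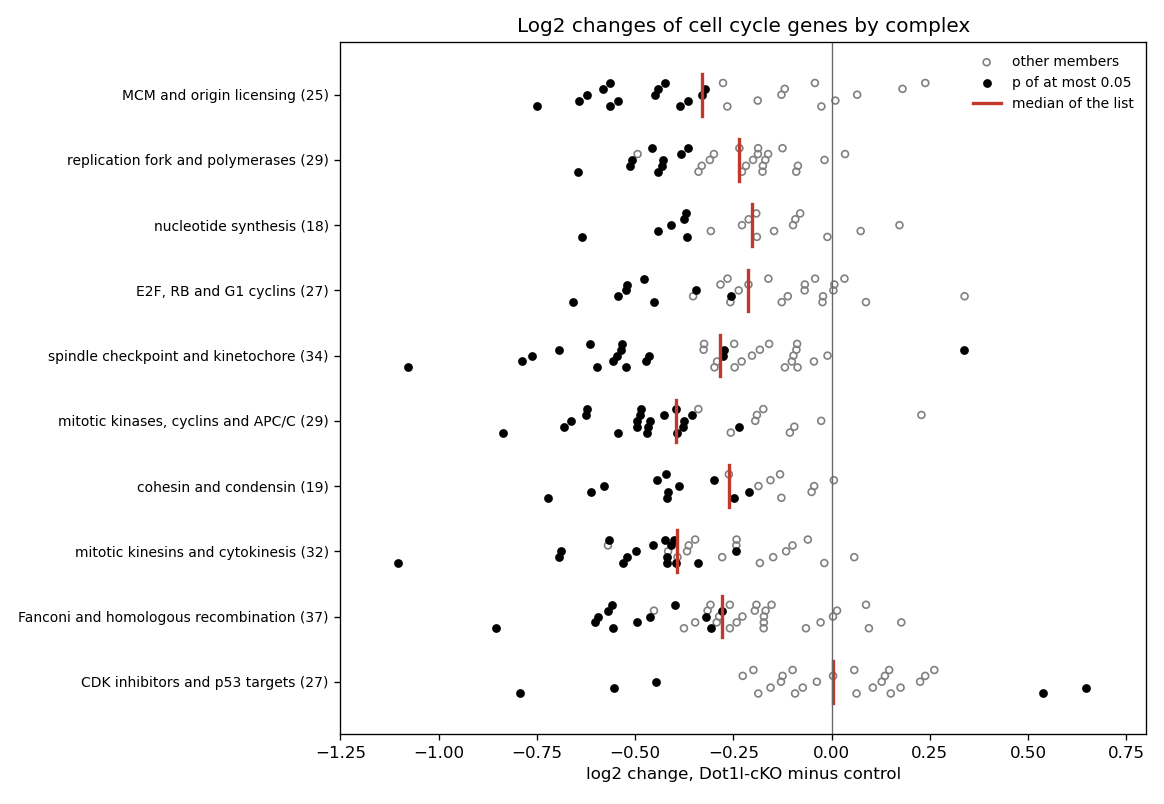
Log2 change of each measured member of 10 lists (1 point per gene, rows with the number measured), filled where the unadjusted limma p was at most 0.05, with the median of the list in red. The 9 lists of replication, mitosis and repair lie mostly left of 0, and the list of CDK inhibitors and p53 targets is centred on it.

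Genes that halt the cycle had log2 changes in both directions. Of 27 CDK inhibitors and p53 targets 2 were higher (7.41%) and 3 lower (11.1%) at the cut-off, against 4.09% and 4.59% of all genes. The median was 0.00, and 1 gene was higher without *Dot1l*-cKO 1, *Dot1l*-cKO 2, control 2 or control 3. *Cdkn1a*, which encodes the CDK inhibitor p21, read 10.15, 10.28 and 10.25 in *Dot1l*-cKO, against 9.71, 9.50 and 9.84 in control cerebella (0.54, standard error 0.11). *Cdkn1b*, which encodes p27, read 9.12, 8.96 and 8.83 in *Dot1l*-cKO, against 9.47, 9.44 and 9.67 in control cerebella (-0.55, standard error 0.12). These 2 inhibitors of the same family thus differed in direction, each without overlap between the groups. *Eda2r*, a p53 target that encodes a receptor, had a log2 change of -0.79 and *Phlda3*, an inhibitor of AKT, of 0.65 (0.42 without control 2).

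Promoters of many mitotic genes are known to carry the cell cycle homology region (CHR, TTTGAA) and CCAAT boxes, and those of replication genes sites of E2F (GCGGGAA). Either strand was searched in the 250 bases before the start. For mitotic kinases, kinesins and cytokinesis, 24 of 55 windows held TTTGAA and 18 held it with CCAAT, against 16.0% and 5.55% of all windows. For the spindle checkpoint and kinetochore, 7 of 34 windows (20.6%) held TTTGAA, near the share of all windows. For origin licensing and the fork, 13 of 56 windows held GCGGGAA, against 3.82% of all windows and 4.97% of those of the tested genes. GCGGGAA was also in 8 of 33 windows (24.2%) of the Fanconi and recombination list. It was in 6 of 34 (17.6%) of the kinetochore list and 2 of 55 (3.64%) of mitotic kinases, kinesins and cytokinesis. Promoters are shown for this mitotic set and for the licensing and fork set, with the letters in capitals. They are the 2 members of each with the largest changes at the cut-off among those with the letters in the last 150 bases. For TTTGAA and CCAAT these are *Arhgap19* and *Ckap2l*, a spindle protein gene (-0.57). For GCGGGAA these are *Cdc6* and *Gins3*, a subunit of the GINS complex (-0.54). In build GRCm38.p6 they are *Arhgap19* at chr19:41802085-41802234, minus strand, *Ckap2l* at chr2:129297213-129297362, minus strand, *Cdc6* at chr11:98908001-98908150, plus strand, and *Gins3* at chr8:95633409-95633558, plus strand. Matches describe these windows and were not tested for binding.
Arhgap19: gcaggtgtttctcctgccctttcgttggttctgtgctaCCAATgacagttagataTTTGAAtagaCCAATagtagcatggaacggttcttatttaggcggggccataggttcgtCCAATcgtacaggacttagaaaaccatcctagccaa
Ckap2l: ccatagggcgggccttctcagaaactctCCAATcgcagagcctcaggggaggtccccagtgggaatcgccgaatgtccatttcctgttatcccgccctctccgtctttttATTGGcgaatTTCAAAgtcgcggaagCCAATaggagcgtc
Cdc6: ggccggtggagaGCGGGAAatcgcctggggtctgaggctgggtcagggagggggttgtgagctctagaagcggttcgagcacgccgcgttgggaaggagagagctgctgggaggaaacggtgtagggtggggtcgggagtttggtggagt
Gins3: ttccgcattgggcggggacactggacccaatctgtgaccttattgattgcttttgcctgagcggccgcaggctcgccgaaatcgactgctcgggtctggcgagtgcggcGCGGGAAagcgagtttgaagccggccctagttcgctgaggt

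**Figure D3:**
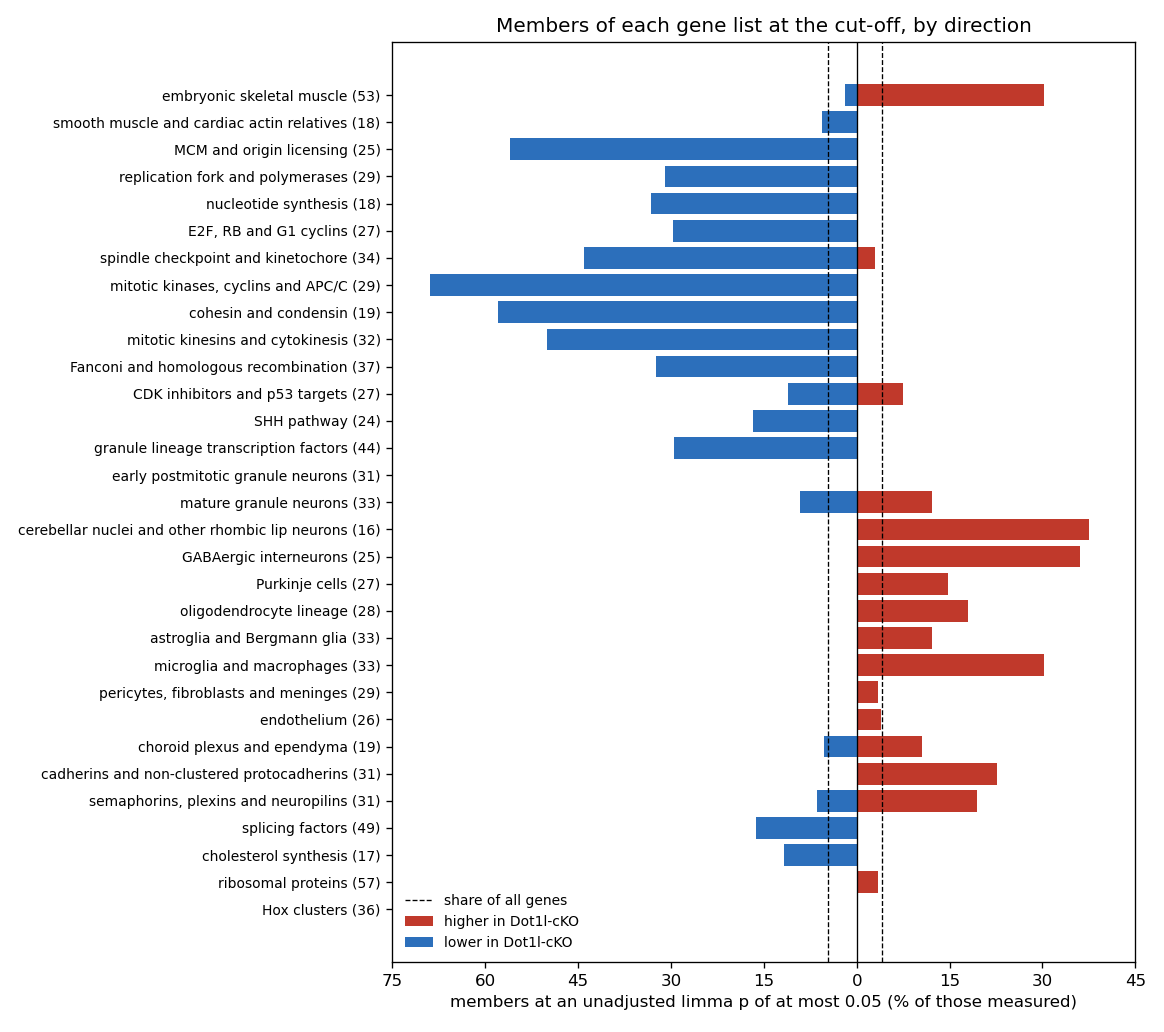
Share of the measured members of 31 gene lists at an unadjusted limma p of at most 0.05, higher in *Dot1l*-cKO cerebella to the right (red) and lower to the left (blue), with the shares of all genes dashed (4.09% higher, 4.59% lower). Lists of rhombic lip neurons, interneurons, microglia and muscle pass 30% on the right, and those of licensing, mitotic kinases, kinesins and cohesin reach 50% or more on the left.

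Transcription factors of the granule lineage included 13 genes lower at the cut-off of 44 measured (29.5%) and none higher, with a median of -0.07, and the count was 8 without *Dot1l*-cKO 3, control 2 or control 3. *Otx1*, a homeobox gene of granule precursors, read 4.81, 4.77 and 4.58 in *Dot1l*-cKO cerebella, against 5.44, 6.75 and 6.53 in control cerebella (-1.52, standard error 0.29). Its *Dot1l*-cKO signals were close to those of an absent transcript, and control 1 was the lowest of the controls. *Atoh1* read 8.38, 8.17 and 7.94 in *Dot1l*-cKO, which have 1 *Atoh1* cre allele, and 9.18, 8.73 and 8.96 in control cerebella (-0.79, standard error 0.16). *Pax6*, a homeobox gene kept from precursors into granule neurons, read 9.52, 9.25 and 9.57 in *Dot1l*-cKO, against 10.06, 10.03 and 9.94 in control cerebella (-0.57). None of the 3 overlapped between the groups. *Barhl1* (-0.55), *Zic5* (-0.48), *Sox11* (-0.41), *Nfib* (-0.33) and *Zic2* (-0.24) were also lower at the cut-off. *Otx2*, the relative of *Otx1* in posterior lobules, had a log2 change of -0.35 (-0.19 without *Dot1l*-cKO 2). *Otx1* is named by the study from these arrays and is not independent evidence here. The same holds for other genes of this report, among them *Cdkn1a*, *Cadps2*, *Sema5a*, *Sema4a*, *Sema6d*, *Slit1*, *Robo1*, *Pcdh17*, *Tnfaip8l3*, *Lss*, *Lbr* and *Pdgfrb*. By qRT-PCR the study reported significant increases of *Sema5a*, *Sema4a* and *Robo1*. It named none for *Slit1* and *Sema6d*, which it also tested. For *Nsd2* its qRT-PCR showed no change. For *Pax6* it reported fewer PAX6-expressing cells by immunostaining of P3 sections.

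Within the SHH pathway, 4 of 24 genes were lower at the cut-off (16.7%, against 4.59% of all genes) and none higher. The median was -0.11, and the count was 2 without control 3. The target genes *Mycn* (-0.41) and *Ccnd2* were among the 4, and so were *Evc*, a ciliary transducer (-0.61), and *Sfrp1*, a secreted modulator of WNT signals. *Sfrp1* read 9.27, 9.96 and 9.81 in *Dot1l*-cKO, against 10.43, 10.83 and 10.91 in control cerebella (-1.05, standard error 0.17). The direct targets *Gli1* (6.80 to 7.48 in *Dot1l*-cKO, 6.99 to 7.29 in control cerebella) and *Ptch1* (10.01 to 10.23 in *Dot1l*-cKO, 9.89 to 10.07 in control cerebella) overlapped between the groups.

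None of 31 genes of early postmitotic granule neurons, which guide migration and axon growth, was at the cut-off, and the median was 0.04. Without each mouse in turn up to 4 were higher or 2 lower, and with the median of the tested genes subtracted 4 were lower and the median was -0.05. Of 33 genes of mature granule neurons 4 were higher (12.1%) and 3 lower (9.09%), against 4.09% and 4.59% of all genes, and 1 was higher without *Dot1l*-cKO 3 or control 3, or 2 without control 1. The lower ones were *Cadps2*, which primes dense-core vesicles (-0.68), the potassium channel *Kcnk1* (-0.55) and the NMDA receptor subunit *Grin2c* (-0.37). *Cadps2* read 8.98, 8.89 and 8.79 in *Dot1l*-cKO, against 9.63, 9.40 and 9.67 in control cerebella.

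**Figure D4:**
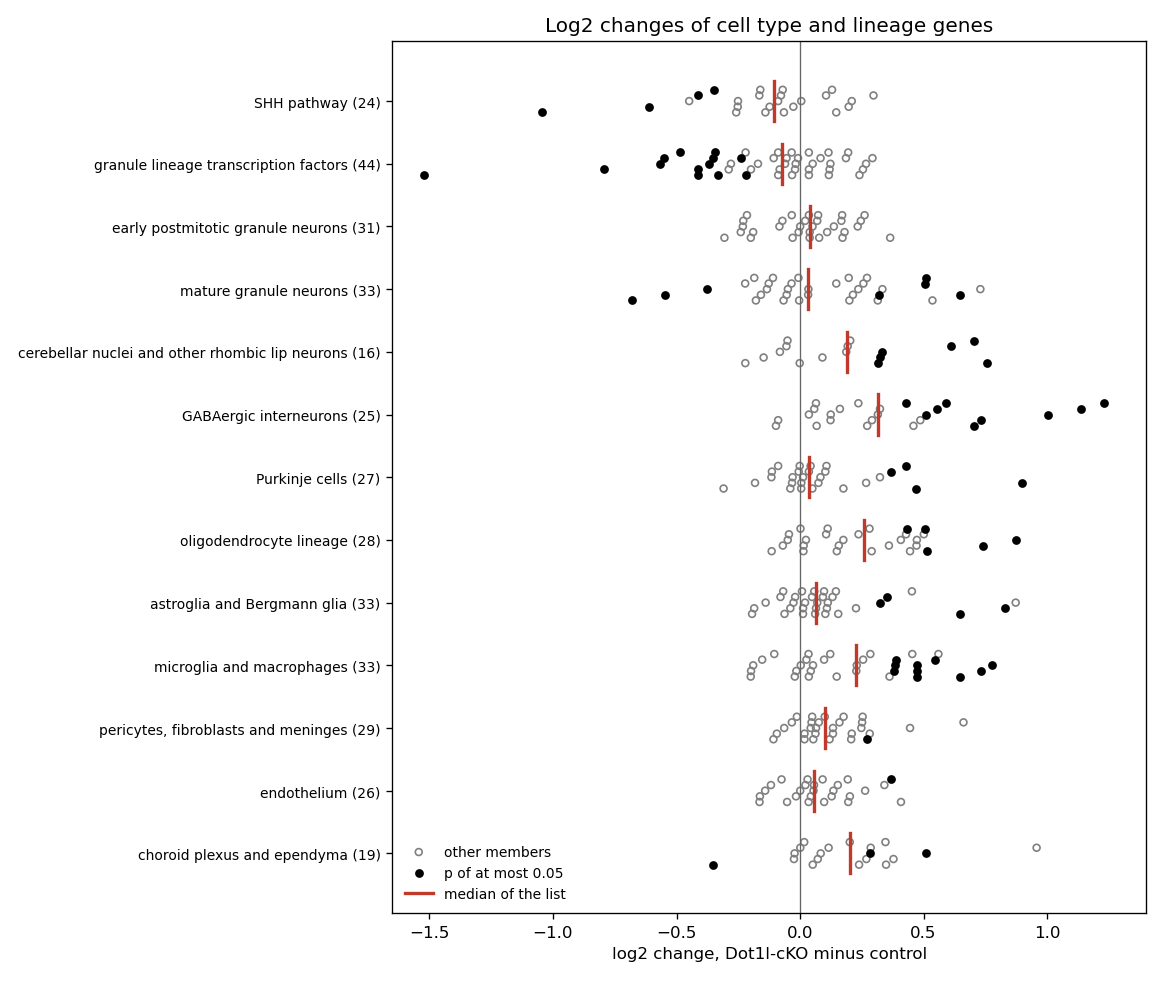
Log2 change of each measured member of 13 lists of lineages and cell types, drawn as for the cell cycle genes. Members at the cut-off lie below 0 in the lists of SHH and granule lineage factors, and above 0 in those of interneurons, nuclei and microglia.

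Markers of cells outside the granule lineage were higher at the cut-off in several lists. Of 25 genes of GABAergic interneurons 9 were higher (36.0%, against 4.09% of all genes) and none lower, with a median of 0.31. Besides *Pax2* they included *Tfap2a* (0.59) and *Tfap2b* (0.55), transcription factors of GABAergic precursors, *Slc6a5*, the glycine transporter (0.70), and *Sst*, somatostatin (1.01). *Tfap2a* read 9.17, 9.67 and 9.58 in *Dot1l*-cKO, against 8.86, 9.03 and 8.76 in control cerebella, without overlap. Without each mouse in turn, 7 to 10 were at the cut-off. Of 16 genes of the cerebellar nuclei and of other rhombic lip neurons 6 were higher (37.5%), among them *Lmx1a* (0.76), *Slc17a6*, the vesicular glutamate transporter of the nuclei (0.61), and the T-box genes *Eomes* (0.32), of unipolar brush cells, and *Tbr1* (0.33). This count was 2 without *Dot1l*-cKO 3 and 3 without control 2 or control 3. Without *Dot1l*-cKO 3 the log2 change was 0.59 for *Sst*, 0.40 for *Lmx1a* and 0.35 for *Slc17a6*. *Slc6a5* belongs to both lists.

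For Purkinje cells 4 of 27 genes were higher (14.8%, against 4.09% of all genes), led by *Sv2c*, a synaptic vesicle protein (0.90), with a median of 0.04. The count was 2 without *Dot1l*-cKO 2 or any 1 control. With the median of the tested genes subtracted the list's median was -0.05, and *Sv2c* had 0.55 without *Dot1l*-cKO 3. In the oligodendrocyte lineage 5 of 28 were higher (17.9%), *Enpp6*, *Mag*, *Cldn11*, *Sox10* and *Plekhb1*, with a median of 0.26. *Sox10*, the factor of the whole lineage, read 6.04, 6.20 and 6.33 in *Dot1l*-cKO, against 5.65, 5.67 and 5.75 in control cerebella, without overlap (0.51). The count was 1 without *Dot1l*-cKO 3 and 9 without *Dot1l*-cKO 2. Of 33 genes of microglia and macrophages 10 were higher (30.3%) and none lower, with a median of 0.23. *Cx3cr1*, the fractalkine receptor, read 7.58, 7.38 and 7.54 in *Dot1l*-cKO, against 6.71, 6.98 and 7.17 in control cerebella (0.55). *Trem2*, a receptor for lipids and debris, read 6.17, 6.28 and 5.87 in *Dot1l*-cKO, against 5.11, 5.36 and 5.51 in control cerebella (0.78, standard error 0.20). The complement gene *C1qb* (0.47) and *P2ry13* (0.65) followed, and 6 members were higher without control 1. Vascular and fibroblast markers had 1 higher of 29 (*Pdgfrb*) and 1 of 26 (*Cdh5*), near the share of all genes, but 6 and 3 without *Dot1l*-cKO 3.

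*Dot1l*-cKO 3 differed from the other mice in some of these markers. *Ttr*, the transthyretin of choroid plexus, read 7.88, 7.10 and 10.99 in *Dot1l*-cKO and 7.67 to 7.73 in control cerebella, and the mean of 19 choroid and ependymal genes stood 0.58 above control in *Dot1l*-cKO 3, against -0.02 and 0.03 in *Dot1l*-cKO 1 and 2. Means of pericyte, fibroblast and meningeal genes were 0.37, 0.22 and -0.20 from the control mean in *Dot1l*-cKO 1 to 3, and 0.17, -0.12 and -0.05 in controls 1 to 3. Their part in the other results was not tested.

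**Figure D5:**
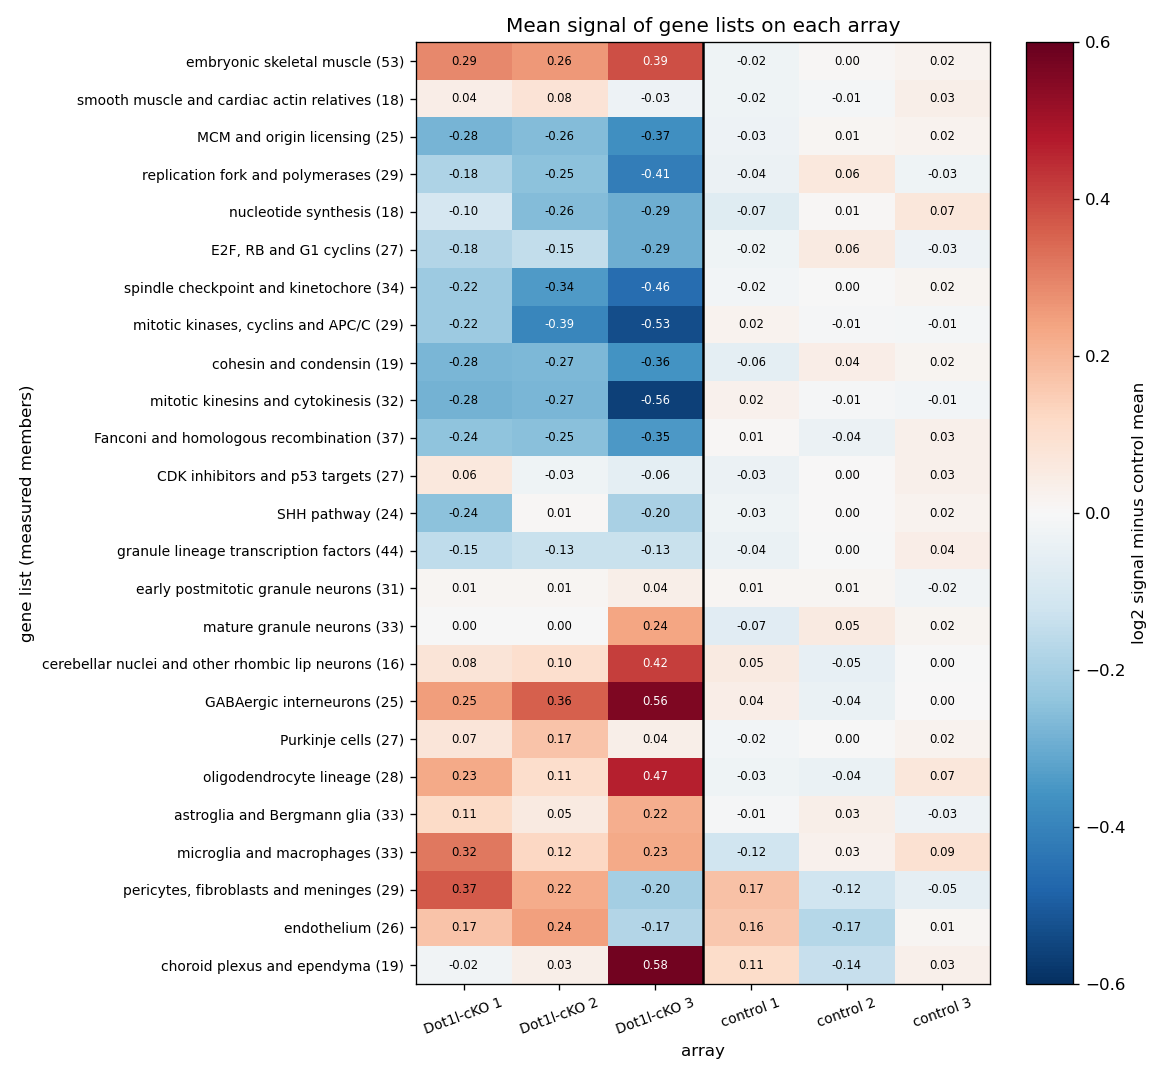
Mean log2 signal of 25 gene lists on each array minus the mean of the 3 controls, with *Dot1l*-cKO arrays left of the line and control arrays right of it. Cell cycle lists are below 0 in all *Dot1l*-cKO mice, and choroid plexus genes stand out in *Dot1l*-cKO 3 alone.

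Guidance and adhesion genes were mixed. Of 31 semaphorins, plexins and neuropilins 6 were higher (19.4%) and 2 lower (6.45%), against 4.09% and 4.59% of all genes. *Sema5a* read 7.57, 8.09 and 8.21 in *Dot1l*-cKO, against 7.01, 7.41 and 7.19 in control cerebella (0.75), and the receptor gene *Plxnb3* had the same log2 change. *Sema4a* (0.64) and *Sema6d* (0.38) were higher, *Sema4f* (-0.50) and *Sema7a* (-0.32) lower, with -0.29 for *Sema4f* without *Dot1l*-cKO 2 and -0.20 for *Sema7a* without *Dot1l*-cKO 3. Among 23 Slit, Robo and netrin genes, the repellent *Slit1* (0.66) and its receptor *Robo1* (0.30) were higher, whereas the netrins *Ntn4* (-0.68) and *Ntn1* (-0.47, or -0.30 without *Dot1l*-cKO 2) were lower. *Ntn4* read 7.47, 7.20 and 7.56 in *Dot1l*-cKO, against 8.11, 8.18 and 7.98 in control cerebella. Of 21 ephrins and Eph receptors only *Efna5*, a tethered ligand (0.57), was at the cut-off (4.76%), near the share of all genes. Cadherins and non-clustered protocadherins had 7 higher of 31 (22.6%) and none lower, with *Pcdh17* (0.52), *Cdh6* (0.49) and *Pcdh1* (0.43) first, *Cdh6* with 0.27 without *Dot1l*-cKO 3 and *Pcdh1* with 0.28 without control 1, with 2 to 4 higher without *Dot1l*-cKO 2, *Dot1l*-cKO 3, control 1 or control 2, and 1 with the median of the tested genes subtracted.

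Of 57 potassium channel genes 6 were higher (10.5%) and 4 lower (7.02%), against 4.09% and 4.59% of all genes. *Kcnn2*, the small-conductance channel of Purkinje cells, was first (0.83). The count of higher genes was 3 without control 3 and 11 without *Dot1l*-cKO 1. Sodium and calcium channels had 6 higher of 27 (22.2%) and none lower, among them *Scn9a* (0.60) and the T-type channels *Cacna1i* (0.69) and *Cacna1h* (0.68). Their count was 3 without *Dot1l*-cKO 3 or control 3. *Cacna1i* had 0.40 without *Dot1l*-cKO 3. In vesicle release 6 of 44 were higher (13.6%) and 3 lower (6.82%). The count of higher genes was 2 without *Dot1l*-cKO 3 or control 3, and 3 without control 1. *Syt9*, a calcium sensor, read 8.08, 8.20 and 8.02 in *Dot1l*-cKO, against 8.79, 8.90 and 8.83 in control cerebella (-0.74, standard error 0.12), without overlap.

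Of 21 genes of H3K79 methylation, DOT1L partners and counteracting factors, none was higher and 2 were lower at the cut-off (9.52%, against 4.59% of all genes), *Sirt1* (-0.40) and *Nsd2* (-0.29), and 4 with the median of the tested genes subtracted. Of 51 other histone methylases and demethylases 3 were lower (5.88%), near the share of all genes. The 3 were *Ezh2* and *Suz12*, of the Polycomb complex that methylates H3K27 (both -0.38), and *Kmt5a* (-0.28), a methylase active in mitosis. *Ezh2* read 10.02, 9.87 and 10.05 in *Dot1l*-cKO, against 10.28, 10.34 and 10.44 in control cerebella. Among 51 chromatin remodellers and DNA methylation genes 7 were lower (13.7%) and 1 higher, with 3 lower without *Dot1l*-cKO 3 and 4 without control 2. *Baz1a*, first among them, averaged 7.28 ± 0.29 in *Dot1l*-cKO and 8.33 ± 0.06 in control cerebella (SD, n = 3 each), and *Chd7*, a remodeller active in granule precursors, had a log2 change of -0.28 (-0.18 without control 2). With the same subtraction 8 of the other methylases and 11 remodellers were lower. None of 36 Hox genes, known DOT1L-dependent genes in leukaemia, was at the cut-off (median -0.06). With that subtraction 8 were lower. The mean over the Hox genes was 4.15 to 4.24 on the arrays of both groups, at the signal of an absent transcript. These counts therefore cannot show whether Hox genes depend on DOT1L here.

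Of 55 WNT pathway genes 3 were lower (5.45%, near the 4.59% of all genes), *Sfrp2* (-0.70) and *Sfrp1* among them, and 1 was higher. BMP and TGF-β genes had 3 lower of 42 (7.14%) and 1 higher. The lower ones were *Bmp5*, the antagonist *Chrd* (-0.48) and the receptor *Bmpr1a* (-0.27, or -0.41 without control 1). Growth factors and their receptors had 4 higher of 43 (9.30%), with *Igf1* (0.50), and 2 lower (4.65%), with *Pdgfc* (-0.57). Splicing factors had 43 lower means of 49 and 8 genes lower at the cut-off (16.3%), led by *Snrpe*, a core spliceosome protein (-0.76). That count was 17 without *Dot1l*-cKO 1, 2 without *Dot1l*-cKO 2, 5 without *Dot1l*-cKO 3, 4 without control 2 or control 3, and 22 with the median of the tested genes subtracted, and *Snrpe* had -0.50 without control 2. Of 17 cholesterol synthesis genes, 2 were lower (11.8%), *Lbr*, a sterol reductase of the nuclear envelope (-0.67), and *Lss*, lanosterol synthase (-0.28). Cholesterol export and LXR targets had 3 higher of 15, with *Apoe* first (0.83), and its groups overlapped. Of 34 genes of the unfolded protein and integrated stress responses 1 was lower (2.94%), *Hsp90b1* (-0.25). Ribosomal proteins (2 higher of 57), respiratory chain subunits (3 higher and 1 lower of 69), collagens (2 lower of 40), and immediate early genes (1 higher and 1 lower of 26) stood close to the share of all genes. Several of the counts below 6 in these lists varied by more than 1.5 times with single mice left out.

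Relatives and neighbours of the genes past the test were examined in turn. Among Cyp4f genes, which lie together on chromosome 17, *Cyp4f16* (0.58), *Cyp4f13* (0.53) and *Cyp4f15* (0.51) were higher at the cut-off besides *Cyp4f39*, while *Cyp4f17*, the next measured gene, had a log2 change of 0.01. Probes of such relatives may share signal. Of the 50 measured genes nearest in order to *Cyp4f39*, 7 were at the cut-off (14.0%, against 8.69% of all genes), and 3 to 6 of 50 around *Dot1l*, *Atoh1*, *Actc1*, *Mymk*, *Carnmt1* and *Ptcd2*. Beside *Carnmt1*, *Nmrk1*, a kinase for nicotinamide riboside, read 6.88, 7.05 and 6.93 in *Dot1l*-cKO, against 7.56, 7.96 and 7.21 in control cerebella (-0.62), and beside *Mymk*, *Slc2a6*, a sugar transporter, had a log2 change of 0.52. Beside *Atoh1*, *Smarcad1* was at the cut-off (-0.31), and *Cartpt* (1.35) and *Naip5* (-0.68) lay 3 and 9 measured genes from *Ptcd2*. The genes next to *Actc1*, *Dot1l* and *Ptcd2* were not at the cut-off. Of 9131 clusters without a gene symbol 436 were at the cut-off (4.77%), with none past the adjusted test (smallest adjusted p 0.321).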

How the data were processed

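RNA of whole P3 cerebella was hybridised to Affymetrix Mouse Gene 2.0 ST arrays. The deposited values are log2 signals that the authors made with Partek by RMA background correction, adjustment for GC content and probe sequence, quantile normalization and median polish (version numbers and array build: not given in the sources used here). Precision is limited by the number of arrays. The authors' tables of comparisons (p-values, fold changes) were not used. The brightest of a gene's single-symbol clusters was kept, symbols coming from the platform annotation. The groups were compared with limma 3.58.1 (R 4.3.3; intensity trend, no covariates), with Benjamini-Hochberg adjustment over 22180 genes; the fit was tested on simulated data. A p-value sets the difference between the groups against the spread between these mice. The variance of each gene was moderated toward the trend with intensity over all genes. Named were genes past the adjusted test, 15 per direction at the cut-off with groups that did not overlap, and list members. Members and lists were chosen with earlier results of these data known. Promoters and their start sites are from RefSeq (GRCm38.p6). Alternatives varied the variance model, scaling, filter, cluster choice, sex and arrays.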

Additional observations from a re-analysis of the deposited data

How the results depend on the processing

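The 5 genes past the adjusted test became 3 without the intensity trend, 0 with the ordinary variance of each gene (limma; 1715 at the cut-off), 9 among genes with a mean log2 signal of at least 5, 3 with all clusters tested, 3 with sex as a term, and 8 with the median of the tested genes subtracted. Without each mouse in turn they ranged from 1 to 12, the genes higher at the cut-off from 667 to 1125 and the lower ones from 748 to 1239. With the median of the tested genes subtracted, 395 genes were higher and 2451 lower. This setting, and leaving out *Dot1l*-cKO 1 and control 1 together, were chosen after seeing the data. A few genes named at levels that overlapped changed sign. The log2 change of *Cyp4f17* was -0.01 after further quantile normalization, -0.11 with sex as a term, -0.076 with the median of the tested genes subtracted and -0.23 to 0.20 without each mouse. That of *Gli1* was 0.015 without *Dot1l*-cKO 1 and control 1 and -0.27 to 0.074 without each mouse. That of *Pax7* was 0.0015 with array weights, 0.013 after quantile normalization, 0.033 with sex, 0.057 without *Dot1l*-cKO 1 and control 1 and -0.091 to 0.11 without each mouse. That of *Ttn* was -0.038 with the median of the tested genes subtracted and -0.0007 without *Dot1l*-cKO 1 and control 1. Without each mouse, *Mymx* ranged from -0.12 to 0.021 and *Ttr* from -0.2076 to 1.7335. The median log2 change of 26 gene lists, Purkinje and early postmitotic granule neurons among them, took the other sign under at least 1 alternative. The causes of these differences were not tested. No paired analysis was possible because the labels number the mice without pairing them across genotypes. With 3 mice a group, changes smaller than about the spread between mice were not detectable, and far larger ones could miss the adjusted test. The log2 change of *Chek1* was -0.85 with SDs of 0.08 (*Dot1l*-cKO) and 0.04 (control), at a limma adjusted p of 0.0672.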
